A study of Mus musculus with 11 samples.

Results

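The genes described here are 38 interferon-stimulated genes of the mouse, a list given by name: transcripts that cells produce when interferons, the antiviral cytokines, bind their receptors. All 38 were among the 50600 genes of the deposited count table, and all 38 were among the 15808 that passed the filter on low counts. No member was under 10 counts in every library. RNA came from ventricles of C57BL/6 mice, C57Bl/6J in the study's methods (the sample labels say heart), that had pulmonary artery banding (PAB) or a sham operation on the day of birth, P0, and were harvested 3 days (P3) or 7 days (P7) after it. PAB ties a thread around the pulmonary artery so that the right ventricle pumps against a narrowed outlet, and sham mice had the same surgery without the band. There were 3 libraries each of P3 sham, P3 PAB and P7 sham hearts and 2 of P7 PAB hearts. All 4 groups share the anaesthesia by cooling and the opened chest, and no unoperated heart was analysed here. The ventricles were not separated into right and left in the labels, so the loaded and the other chamber were measured together. The labels do not say whether each library came from 1 animal, so p-values measure the spread between these libraries, which may be technical in part.

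Type I interferons activate a factor complex that holds STAT2 and IRF9 and binds a promoter motif called the interferon-stimulated response element (ISRE). Type II interferon acts through another motif, the gamma-activated sequence (GAS), and among the genes induced in that way is Irf1, itself a transcription factor. The products of the induced genes sense foreign nucleic acids, degrade or block viral RNA, hold virus particles at membranes, attach the ubiquitin-like protein ISG15 to other proteins, or attack the vacuoles in which parasites live. In bulk RNA of the heart, cardiomyocytes, endothelial cells, fibroblasts and resident macrophages all contribute such transcripts, and fewer cells of a type and less RNA per cell cannot be told apart.

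Of the 38 members, 29 had a promoter window in RefSeq (build GRCm38.p6, from 250 bases before to 50 after a start). The ISRE was searched as GAAANNGAAA and, for the other strand, TTTCNNTTTC, and the GAS as TTCNNNGAA, which reads the same on both strands. Matches of the 2 motifs may overlap, since both can hold the letters GAA. The ISRE was present in 16 of the 29 members (55.2%) and in 3.99% of all 27025 genes with a window, and the GAS in 8 of 29 (27.6%) and in 9.55% of all genes. There were 11 members with the ISRE alone, 3 with the GAS alone, 5 with both and 10 with neither. The 150 bases before the start are printed here for 5 members. These 5 met the criterion for a change in a comparison and had a motif in this stretch, which lies outside their own annotated gene (GENCODE M21). They carry the motifs of genes whose levels follow. Each is written 5′ to 3′ on the strand of its gene, and capitals mark the ISRE or GAS letters. Irf1 holds a GAS, Isg15 a run of 3 overlapping ISREs, Rsad2 an ISRE on the other strand, Bst2 a GAS that runs into 2 ISREs, and Igtp a GAS followed by an ISRE.
Irf1, chr11:53769864-53770013, plus strand: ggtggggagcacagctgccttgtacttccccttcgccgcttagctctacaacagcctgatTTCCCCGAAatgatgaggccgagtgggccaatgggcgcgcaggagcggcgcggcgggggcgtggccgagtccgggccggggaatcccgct
Isg15, chr4:156200819-156200968, minus strand: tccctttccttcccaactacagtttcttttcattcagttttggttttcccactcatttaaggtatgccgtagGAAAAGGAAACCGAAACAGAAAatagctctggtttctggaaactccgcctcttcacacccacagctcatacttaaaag
Rsad2, chr12:26456453-26456602, minus strand: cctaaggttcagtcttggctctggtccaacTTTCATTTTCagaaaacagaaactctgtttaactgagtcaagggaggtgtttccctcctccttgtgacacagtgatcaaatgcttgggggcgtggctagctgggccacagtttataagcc
Bst2, chr8:71537473-71537622, minus strand: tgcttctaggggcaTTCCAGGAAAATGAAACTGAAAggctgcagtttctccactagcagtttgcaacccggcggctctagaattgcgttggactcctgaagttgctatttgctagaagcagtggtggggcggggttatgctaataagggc
Igtp, chr11:58199406-58199555, plus strand: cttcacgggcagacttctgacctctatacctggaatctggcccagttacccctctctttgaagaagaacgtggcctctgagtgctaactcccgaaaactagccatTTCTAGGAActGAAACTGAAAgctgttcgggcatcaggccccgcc

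Levels are given as CPM, counts scaled to a common library size by edgeR's TMM method. The libraries held 19274045 to 26820228 counts, and a count of 0 leaves room for up to 3 counts, or 0.114 to 0.148 CPM, counting error alone considered. A member counts as called if edgeR's quasi-likelihood test, adjusted over the 15808 genes by the Benjamini-Hochberg method, gave p of at most 0.05 and the groups differed 1.5-fold or more. Compared per length, as mean CPM per kb of exon over the 11 libraries, the most abundant member was Ifitm3 at 75.9, followed by Bst2 at 17.4, Trim25 at 10.6 and Ifi27 at 7.50. At the low end were Dhx58 at 0.466, Oas2 at 0.355 and Zbp1 at 0.162 CPM per kb. Zbp1 had 5 to 19 counts per library, so that its values are the least precise of the list.

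Before the comparisons, 2 features of the libraries bear on the members. First, Xist, made by the inactive X chromosome, reached 1061 CPM in P3 sham replicate 1 and 630 to 936 CPM in every P7 sham library but stayed under 1 CPM in the other 7 libraries. Those 7 had 42.9 to 51.0 CPM of Ddx3y, a gene of the Y chromosome. At P7 this class and the operation cannot be told apart. The fit that adds the class as a term takes its effect from P3 sham replicate 1 against the other P3 sham libraries, the group that holds both classes. That library was the highest of its group for 33 of the 38 members, so in this fit the class cannot be told apart from the deviation of 1 library, and values from it are given with that limit. Second, the marker genes of the tissue were present, with a summed cardiomyocyte level of 42100 to 61000 CPM, while those of thymus summed to at most 0.130 CPM (Rag2 at 0 in every library) and those of lung to at most 1.66 CPM, in P3 PAB replicate 1 (Scgb1a1 at 0 in every library).

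At P3 no member was called higher or lower in PAB than in sham hearts (background 0.108% of genes called higher and 0.019% lower). DESeq2 called none, and at an unadjusted p of at most 0.05 there was 1 member, Parp9, with a log2 fold change of 0.21 ± 0.08 (SE). The log2 fold changes of the 38 ran from -0.48 to 0.21 with a median of -0.08, against 0 over the genes tested. Of the 38, 28 were negative, but without P3 sham replicate 1 the median was 0.04 with 22 positive and 16 negative. At P7, 6 members were higher and 2 lower in PAB hearts, which is 15.8% and 5.26% of the list beside a background of 9.63% and 8.59% of genes. The higher ones were Ifitm3, Ifi27, Rtp4, Bst2, Iigp1 and Irgm1 and the lower ones Rsad2 and Ifih1. The median log2 fold change of the 38 was 0.07, with a range from -1.03 to 0.87. Leaving out a library moved that median between -0.11 (without P7 PAB replicate 1) and 0.19 (without P7 sham replicate 1 or P7 PAB replicate 2). Every PAB library lay above every sham library for 8 members and below for 8, each 21.1% of the list beside 30.8% and 29.6% of all genes. In this fit the list did not move in a single direction. The higher count rested on single libraries: it was 2 without P7 sham replicate 3 or P7 PAB replicate 1 (5.26%, beside 8.3% and 7.29% of genes) and 11 without P7 sham replicate 1 (28.9%, beside 11.3%). With the trend of each library with exonic length removed, 2 members were higher and 1 lower (5.26% and 2.63%, beside 6.25% and 7.12% of genes). When the class by Xist and Y transcripts was part of the fit, 5 members were called higher and 0 lower. That is 13.2% and 0%, beside 7.67% and 5.93% of genes in that fit. Ifitm3 (1.28), Ifi27 (0.72), Bst2 (1.11) and Rtp4 (1.31) remained called while Irgm1 (0.78) and Iigp1 (0.42) did not. The other member called higher there was not called without the class. The median of the 38 in that fit was 0.41 with 30 positive, against -0.02 over all genes. Its class effect comes from P3 sham replicate 1.

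**Figure D1:**
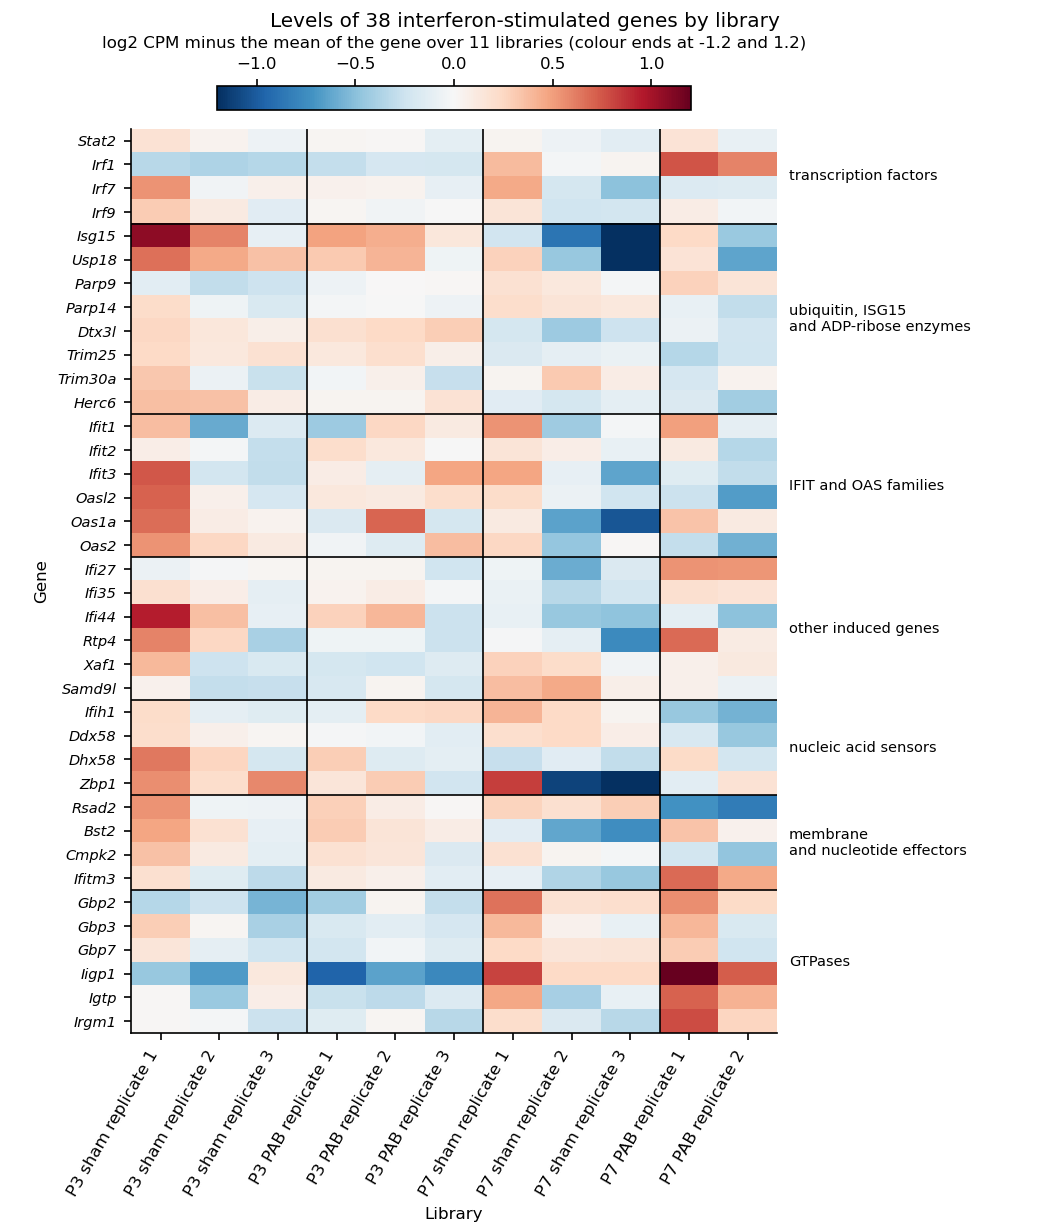
Log2 CPM of the 38 genes minus the mean of each gene over the 11 libraries, with genes in rows by role and libraries in columns by group, and colours that end at -1.2 and 1.2. Iigp1, Igtp, Irgm1, Gbp2, Irf1, Ifi27 and Ifitm3 are red in both P7 PAB libraries where Rsad2 and Ifih1 are blue, and the first library of P3 sham and of P7 sham is redder than its group for most rows.

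With age, from P3 to P7, 2 members rose and 4 fell in sham hearts (background 5.62% and 5.73% of genes). Gbp2 and Iigp1 rose, and Isg15, Usp18, Ifi44 and Bst2 fell. Without P7 sham replicate 1 there were 0 rises and 6 falls (0% and 15.8%, beside 5.25% and 6.3% of genes). Without P3 sham replicate 1 there were 2 rises and 1 fall (5.26% and 2.63%, beside 5.07% and 5.34%). The libraries with high Xist were 1 of 3 at P3 and 3 of 3 at P7 in sham hearts, and with the class in the fit the calls of Gbp2 (0.70, adjusted p = 0.053), Iigp1 (0.90, adjusted p = 0.072) and Usp18 (-1.07, adjusted p = 0.1) were lost. In PAB hearts 6 rose and 3 fell over the same days (background 9.5% and 8.2%). Iigp1, Irf1, Igtp, Irgm1, Gbp2 and Ifi27 rose, and Rsad2, Ifih1 and Oasl2 fell. Scaling by the total count, which moved the median of all genes to -0.31 in sham and -0.25 in PAB hearts, gave 0 rises and 11 falls in sham hearts (0% and 28.9%, beside 2.51% and 18.2% of genes) and 2 rises and 9 falls in PAB hearts (5.26% and 23.7%, beside 4.08% and 19.4%). The PAB comparisons at P3 and P7 and the age comparisons share libraries, so these counts are not separate pieces of evidence. The difference between the PAB effects at the 2 ages, tested as an interaction term at an adjusted p of 0.05 or less, was present for 8 members, 21.1% of the list beside a background of 25.9% of genes. The 8 were the same genes as those called between P7 PAB and P7 sham hearts. The highest group mean was found in P3 sham hearts for 15 members, P3 PAB for 3, P7 sham for 8 and P7 PAB for 12.

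Among the transcription factors, Irf1 was the member called in a comparison, and the 3 others were not called. Irf1 (ENSMUSG00000018899.16, chromosome 11, 53770014 to 53778374, GRCm38) was at 9.66, 9.40 and 9.61 CPM in P3 sham, 9.96, 10.6 and 10.5 in P3 PAB, 15.9, 12 and 12.4 in P7 sham and 20.5 and 18.4 in P7 PAB libraries. No P7 library overlapped a P3 library, and both P7 PAB libraries lay above the P7 sham libraries. It rose with age in PAB hearts by 0.91 ± 0.11 on the log2 scale (SE, adjusted p = 1.9e-05), a call that held in every alternative run. The difference between P7 PAB and P7 sham, 0.54 ± 0.11 (adjusted p = 0.0011), and the one with age in sham hearts, 0.49 ± 0.11 (adjusted p = 0.0026), passed the test but not the fold change of 1.5. Stat2 and Irf9, whose products are part of the complex that binds the ISRE, were not called in any comparison. Stat2 was at 23.8, 21.7 and 20.2 CPM in P3 sham, 21.4, 21.2 and 19.3 in P3 PAB, 21.5, 20.2 and 19.3 in P7 sham and 23.6 and 19.7 in P7 PAB libraries. Irf9 was at 25.2, 22.0 and 18.5, then 20.8, 19.9 and 20.3, then 22.8, 17.3 and 17.6, and 21.7 and 19.9 CPM in the same order of groups. The 4 groups overlapped for both genes. Irf7, which amplifies the type I response, was at 9.40, 6.28 and 6.76 CPM in P3 sham, 6.68, 6.67 and 6.05 in P3 PAB, 8.87, 5.59 and 4.61 in P7 sham and 5.77 and 5.82 in P7 PAB libraries. Its widest spread was among the P7 sham libraries, and its PAB effect at P7 was -0.13 ± 0.23.

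Of the 6 GTPases, 4 rose with age under PAB (background 9.5% of genes), and with scaling by the total count Iigp1 alone of them was called. This role holds guanylate-binding proteins and immunity-related GTPases, which act on the vacuoles of intracellular parasites. Iigp1 (ENSMUSG00000054072.12) was at 7.90, 6.73 and 11.8 CPM in P3 sham, 5.56, 6.93 and 6.34 in P3 PAB, 19, 12.7 and 12.7 in P7 sham and 28.1 and 17.9 in P7 PAB libraries. P7 and P3 libraries did not overlap, whereas P7 PAB replicate 2 lay below P7 sham replicate 1. Iigp1 rose with age by 1.88 ± 0.23 in PAB hearts (adjusted p = 2e-05), in every alternative run, and by 0.76 ± 0.21 in sham hearts (adjusted p = 0.013). Its difference of 0.64 ± 0.22 between P7 PAB and P7 sham (adjusted p = 0.026) had an adjusted p of 0.09 by DESeq2, and that call was also lost without P7 sham replicate 2, P7 sham replicate 3 or P7 PAB replicate 1. Without P3 sham replicate 1 or 2 or P7 sham replicate 1 its rise with age in sham hearts was no longer called.

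Irgm1 (ENSMUSG00000046879.7, chromosome 11, 48861968 to 48871683), a regulator of the other GTPases of its family, was at 15.7, 15.3 and 13.0 CPM in P3 sham, 14.1, 15.9 and 12.4 in P3 PAB, 18.0, 13.8 and 12.4 in P7 sham and 26.7 and 18.6 in P7 PAB libraries. Both P7 PAB libraries exceeded the other 9. It was higher in PAB hearts at P7 by 0.63 ± 0.17 (adjusted p = 0.006) and rose with age under PAB by 0.69 ± 0.16 (adjusted p = 0.0033), and both calls were lost without P7 PAB replicate 1, the first also without P7 sham replicate 3 and the second without P3 PAB replicate 3. Igtp (ENSMUSG00000078853.8, chromosome 11, 58199556 to 58207591) was at 9.23, 6.70 and 9.61 CPM in P3 sham, 7.56, 7.32 and 8.16 in P3 PAB, 12.6, 6.90 and 8.59 in P7 sham and 14.9 and 12.2 in P7 PAB libraries. P7 sham replicate 1 lay between the P7 PAB libraries. Igtp rose with age under PAB by 0.82 ± 0.20 (adjusted p = 0.0035), a call lost without P7 PAB replicate 1. Gbp2 (ENSMUSG00000028270.12, chromosome 3, 142620602 to 142638008) was at 7.21, 7.69 and 6.21 CPM in P3 sham, 6.85, 9.40 and 7.51 in P3 PAB, 14.4, 10.4 and 10.5 in P7 sham and 13.5 and 10.7 in P7 PAB libraries. Its P7 levels lay above its P3 levels in both operations and those of P7 PAB and P7 sham overlapped. The rise with age was 0.73 ± 0.15 in sham (adjusted p = 0.002) and 0.62 ± 0.17 in PAB hearts (adjusted p = 0.0074), and its PAB effect at P7 was 0.05 ± 0.16. The first call was lost without P7 sham replicate 1 and the second without P3 PAB replicate 1 or 3 or P7 PAB replicate 1. Gbp3 and Gbp7 were called in none of the comparisons. Gbp2, Gbp3 and Gbp7 lie near each other on chromosome 3 and are similar in sequence, and Igtp shares 162 exonic bases with Irgm2 on the same strand, so counts may have been divided between relatives. The same limit holds for the Ifit and Oas genes and Trim30a, which have close relatives.

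**Figure D2:**
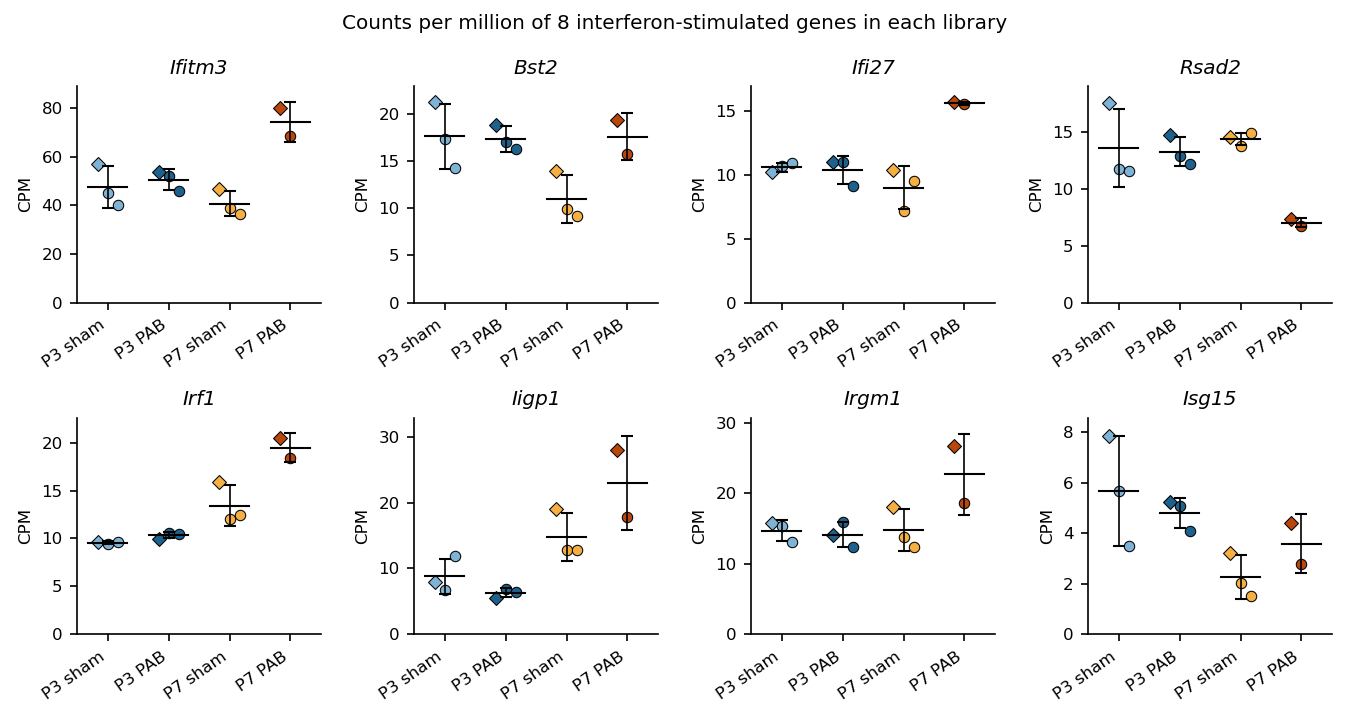
CPM of 8 of the 38 genes in each library, by group, with bars at the group mean ± SD (n = 3, and n = 2 for P7 PAB) and replicate 1 of each group drawn as a diamond. Ifitm3, Ifi27, Irf1 and Irgm1 have their highest values in the 2 P7 PAB libraries, Rsad2 its lowest, and Isg15 is highest in P3 sham replicate 1.

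In the fit of the 4 groups, the membrane and nucleotide effectors held both the largest rise and the largest fall of the list at P7. With the length trend removed, Iigp1 (0.73) and Irgm1 (0.72) were above Ifitm3 (0.42). Ifitm3 (ENSMUSG00000025492.6, chromosome 7, 141009586 to 141010770), which blocks the fusion of viruses with endosomal membranes, was at 57.1, 45.2 and 40.4 CPM in P3 sham, 54.0, 52.3 and 45.8 in P3 PAB, 46.7, 39.1 and 36.6 in P7 sham and 80.2 and 68.5 in P7 PAB libraries. Both P7 PAB libraries were above the other 9. The difference from P7 sham was 0.87 ± 0.13 (adjusted p = 1e-04) and held without any single library. Bst2 (ENSMUSG00000046718.8, chromosome 8, 71534255 to 71537456), known as tetherin because it holds budding virus at the cell surface, was at 21.3, 17.4 and 14.3 CPM in P3 sham, 18.9, 17.0 and 16.3 in P3 PAB, 13.9, 9.91 and 9.14 in P7 sham and 19.4 and 15.8 in P7 PAB libraries. The P7 sham libraries were the lowest, and P7 PAB overlapped both P3 groups. Bst2 thus fell with age in sham hearts, by 0.69 ± 0.16 on the log2 scale (adjusted p = 0.0038), and exceeded the P7 sham level by 0.68 ± 0.18 in P7 PAB hearts (adjusted p = 0.0051), while the change with age in PAB hearts was 0.02 ± 0.17. The PAB call was lost without P7 sham replicate 3 or P7 PAB replicate 1 and the age call without P3 sham replicate 1 or P7 sham replicate 3.

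Rsad2 (ENSMUSG00000020641.16, chromosome 12, 26442746 to 26456452) encodes viperin, which makes a nucleotide that ends viral RNA chains. It was at 17.6, 11.7 and 11.6 CPM in P3 sham, 14.7, 12.9 and 12.2 in P3 PAB, 14.5, 13.8 and 14.9 in P7 sham and 7.34 and 6.75 in P7 PAB libraries. The P7 PAB libraries were below all 9 others, which ranged from 11.6 to 17.6. The difference from P7 sham was -1.03 ± 0.17 (adjusted p = 1.8e-04) and the change with age under PAB -0.91 ± 0.17 (adjusted p = 4.8e-04), and neither depended on a single library. With the class by Xist and Y transcripts in the fit the difference at P7 was -0.44 with an adjusted p of 0.092. Cmpk2, a nucleotide kinase encoded next to Rsad2 (chromosome 12, 26469204 to 26479837) and of related function, was lower at P7 under PAB with no overlap of libraries, by 0.40 ± 0.15 on the log2 scale (adjusted p = 0.047), which is short of the fold change required.

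The nucleic acid sensors showed a fall of Ifih1 at P7. Ifih1 (ENSMUSG00000026896.14, chromosome 2, 62595798 to 62646255) encodes MDA5, a sensor of long double-stranded RNA in the cytoplasm. It was at 8.76, 7.00 and 6.81 CPM in P3 sham, 6.93, 8.88 and 8.94 in P3 PAB, 10.0, 8.89 and 7.71 in P7 sham and 5.50 and 5.08 in P7 PAB libraries. Both P7 PAB libraries were below the other 9. The difference from P7 sham was -0.74 ± 0.16 (adjusted p = 0.0018) and held without any single library, and the change with age under PAB was -0.64 ± 0.16 (adjusted p = 0.0051), a call lost without P3 PAB replicate 2 or P7 PAB replicate 2. With the class by Xist and Y transcripts in the fit the difference at P7 was -0.40 (adjusted p = 0.27). Ddx58, which encodes the related sensor RIG-I, was also lower at P7 without overlap, by 0.49 ± 0.10 on the log2 scale (adjusted p = 0.0011), and missed the fold change. Dhx58, the third gene of that family, was at 0.26 ± 0.29, and Zbp1, a sensor of Z-form nucleic acids, at 0.24 ± 0.54, where the standard error exceeds the difference.

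In the IFIT and OAS families, which bind foreign RNA or make the messenger that activates RNase L, none of the 6 members was called at P7 between PAB and sham hearts, with log2 fold changes from -0.42 to 0.69. Oas1a had the highest of these, 0.69 ± 0.35, with an adjusted p of 0.13. Oasl2 (ENSMUSG00000029561.17, chromosome 5, 114896936 to 114912234) was at 18.6, 11.9 and 9.93 CPM in P3 sham, 12.4, 12.3 and 13.2 in P3 PAB, 13.3, 10.9 and 9.68 in P7 sham and 9.56 and 7.15 in P7 PAB libraries. The P7 PAB libraries were below the P3 PAB libraries, and P7 PAB replicate 1 was close to P7 sham replicate 3. Oasl2 fell with age in PAB hearts by 0.59 ± 0.22 on the log2 scale (adjusted p = 0.039), and that call was lost without any of the 3 P3 PAB libraries or P7 PAB replicate 2. Ifit1, Ifit2, Ifit3 and Oas2 were called in no comparison. Their mean levels over the 11 libraries ran from 1.58 CPM for Oas2 to 20.4 for Ifit2.

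Among the enzymes of ubiquitin, ISG15 and ADP-ribose, Isg15 and Usp18 fell with age in sham hearts. Isg15 (ENSMUSG00000035692.6, chromosome 4, 156199424 to 156200818) encodes the ubiquitin-like modifier and was at 7.86, 5.67 and 3.50 CPM in P3 sham, 5.23, 5.07 and 4.10 in P3 PAB, 3.20, 2.04 and 1.51 in P7 sham and 4.41 and 2.76 in P7 PAB libraries. P7 sham lay below P3 sham in every library, and P7 PAB overlapped both P7 sham and P3 PAB. The change with age in sham hearts was -1.35 ± 0.29 (adjusted p = 0.0028), called in every alternative run, whereas the PAB effect at P7 was 0.70 ± 0.34 with an adjusted p of 0.11. Usp18 (ENSMUSG00000030107.10, chromosome 6, 121245906 to 121270917) encodes the protease that removes ISG15 and dampens signalling at the type I receptor. It was at 4.12, 3.58 and 3.31 CPM in P3 sham, 3.24, 3.46 and 2.52 in P3 PAB, 3.15, 1.90 and 0.922 in P7 sham and 2.93 and 1.68 in P7 PAB libraries. The P7 sham libraries spread widely and lay below the P3 sham libraries. Usp18 fell with age in sham hearts by 0.91 ± 0.31 on the log2 scale (adjusted p = 0.036), and that call was lost without P3 sham replicate 1 or 2 or P7 sham replicate 2 or 3. Parp9 and Dtx3l, whose products form a complex, went opposite ways with age in sham hearts, at 0.32 ± 0.08 (adjusted p = 0.0057) and -0.45 ± 0.09 (adjusted p = 0.0011), both short of the fold change. They share 458 exonic bases on opposite strands, and since the strand setting of the counting is not given in the sources used here, reads there cannot be assigned to either. Herc6, the ligase that attaches ISG15 in the mouse, Parp14, Trim25 and Trim30a were called in no comparison.

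The remaining role held Ifi27 and Rtp4, both higher in P7 PAB hearts. Ifi27 (ENSMUSG00000064215.13, chromosome 12, 103434211 to 103440239), a small hydrophobic protein, was at 10.2, 10.7 and 10.9 CPM in P3 sham, 11.0, 11.0 and 9.10 in P3 PAB, 10.4, 7.14 and 9.52 in P7 sham and 15.7 and 15.5 in P7 PAB libraries. The 9 other libraries were at or below 11.0 CPM. It was higher in PAB at P7 by 0.79 ± 0.13 (adjusted p = 2.2e-04), without dependence on a single library, and rose with age under PAB by 0.59 ± 0.13 (adjusted p = 0.0018), a call lost without P3 PAB replicate 3 or P7 PAB replicate 1. Rtp4 (ENSMUSG00000033355.6, chromosome 16, 23520291 to 23614222), a chaperone of receptor transport, was at 7.98, 6.28 and 4.05 CPM in P3 sham, 5.11, 5.11 and 4.43 in P3 PAB, 5.22, 4.91 and 3.10 in P7 sham and 8.47 and 5.67 in P7 PAB libraries. The P7 PAB libraries were above P7 sham and overlapped P3 sham. The difference at P7 was 0.70 ± 0.26 (adjusted p = 0.039) and its call was lost without P7 sham replicate 3 or P7 PAB replicate 1. Ifi44 (ENSMUSG00000028037.13, chromosome 3, 151730922 to 151749960) was at 6.65, 4.45 and 3.22 CPM in P3 sham, 4.19, 4.55 and 2.88 in P3 PAB, 3.25, 2.53 and 2.47 in P7 sham and 3.19 and 2.46 in P7 PAB libraries. P7 sham replicate 1 was just above P3 sham replicate 3. Ifi44 fell with age in sham hearts by 0.80 ± 0.25 on the log2 scale (adjusted p = 0.022), and that call was lost without P3 sham replicate 1 or P7 sham replicate 2 or 3. Ifi35, Xaf1 and Samd9l were not called.

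**Figure D3:**
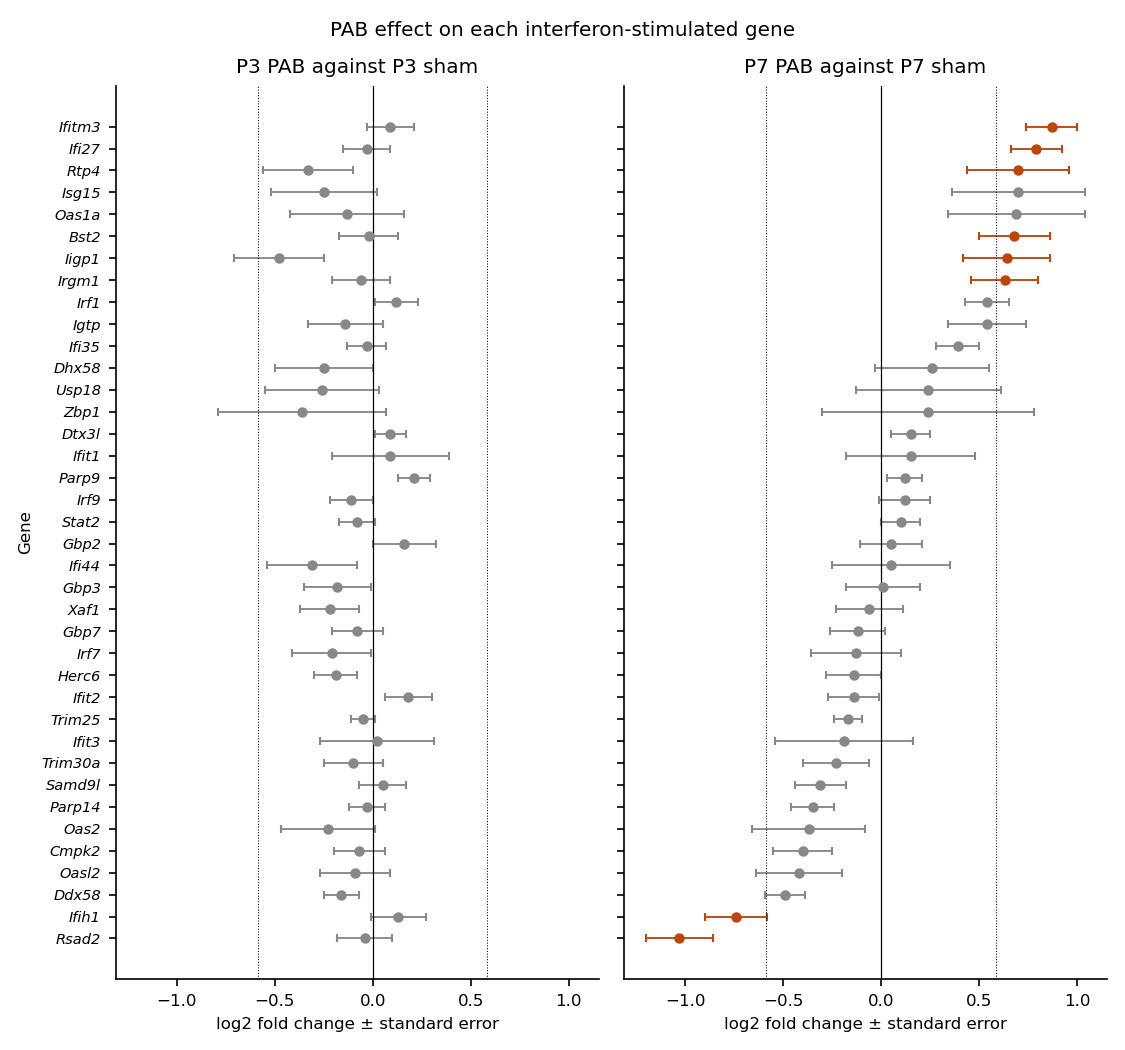
Log2 fold change ± SE of PAB against sham hearts for each of the 38 genes at P3 (left) and P7 (right), in the order of the P7 values, with called genes in colour and dotted lines at a fold change of 1.5. At P3 the points lie between -0.48 and 0.21 with no gene called, and at P7 they run from -1.03 for Rsad2 to 0.87 for Ifitm3.

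Cell markers moved with some of these differences. Between P7 sham and P7 PAB libraries the summed CPM of 8 cardiomyocyte markers went from a range of 54400 to 61000 to one of 42100 to 45400, with 2 of 8 called lower and a median log2 fold change of -0.10 over the list. Most of that fall was in Myh6, the heavy chain of myosin, with means of 31920 and 17260 CPM, while Myl2, a light chain, went from 7222 to 9997 and Tnnt2, a troponin, from 5025 to 4815. The macrophage sum (9 markers) was 117 to 162 in P7 sham and 109 to 126 in P7 PAB, with 1 called lower. That of dendritic cells (7 markers, 3 of them tested) was 5.86 to 6.50 and 3.84 to 4.24, with 1 called lower. Most of the dendritic sum was Clec9a, with means of 4.49 CPM in P7 sham and 2.80 CPM in P7 PAB, while Itgax was at 0.345 and 0.306 CPM. Monocytes with high Ly6c (5 markers) stood at 3.77 to 5.76 and 5.11 to 5.86, with 1 called higher, and T and NK cells (9 markers, 2 of them tested) at 1.63 to 3.84 and 2.22 to 2.27. The B cell sum was 7.19 to 8.93 and 5.24 to 8.43, the neutrophil sum 3.48 to 6.50 and 5.90 to 8.77, the erythroid sum 2240 to 3040 and 3410 to 3900, the fibroblast sum 3160 to 3300 and 2890 to 3420 (1 of 7 markers called lower) and the endothelial sum 1670 to 1790 and 1460 to 1620 (1 of 8 called higher). The part of these cells in the levels of Ifitm3, Rsad2 and the other members was not tested.

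The members also shared a difference between libraries of the same group. In P3 sham hearts replicate 1 was the highest library for 33 of 38 members (86.8%, beside 32.6% of all genes), in P7 sham for 31 (81.6%, beside 42.8%) and in P7 PAB for 33 (86.8%, beside 54.2%), whereas in P3 PAB it was the highest for 12 (31.6%, beside 31.9%). In the first 3 of these groups, chosen after their values were seen, replicate 1 was the highest library for the same 24 members (63.2%, beside 8.26% of all genes). The labels number the replicates without saying whether the numbers pair libraries across groups, and they were not taken to do so. The median log2 deviation of the 38 from their group mean was 0.21 in P3 sham replicate 1, 0.21 in P7 sham replicate 1 and 0.11 in P7 PAB replicate 1, and the medians over all genes were 0 to 0.02. Isg15, Usp18, Bst2, Oasl2 and Ifi44 in the values above all had their highest library of each of the 3 groups in replicate 1. P7 sham replicate 1 also had the highest sums of macrophage markers (162 CPM, the others 117 and 123) and T and NK markers (3.84 CPM, the others 2.38 and 1.64), and P3 sham replicate 1 was the P3 library with high Xist. Its macrophage sum was 104 CPM beside 101 and 120 in its group. The erythroid sum was highest in replicate 1 of all 4 groups, at 3756 CPM beside 3592 and 2252 in P3 sham, 6172 beside 3917 and 2251 in P3 PAB, 3035 beside 2242 and 2374 in P7 sham and 3905 beside 3405 in P7 PAB. The neutrophil sum was highest there in 3 groups (10.5, 12 and 6.50 CPM in P3 sham, P3 PAB and P7 sham) and lowest in P7 PAB (5.90 beside 8.77). The part of these differences in the members' levels was not tested. With replicate 1 of these groups left out together, an alternative chosen after seeing the data, 5 members were called higher in P7 PAB hearts and 3 lower (13.2% and 7.89%, beside 9% and 8% of genes), and Ifitm3 (0.86) and Rsad2 (-1.09) remained called, while Rtp4, Irgm1 and Iigp1 did not.

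**Figure D4:**
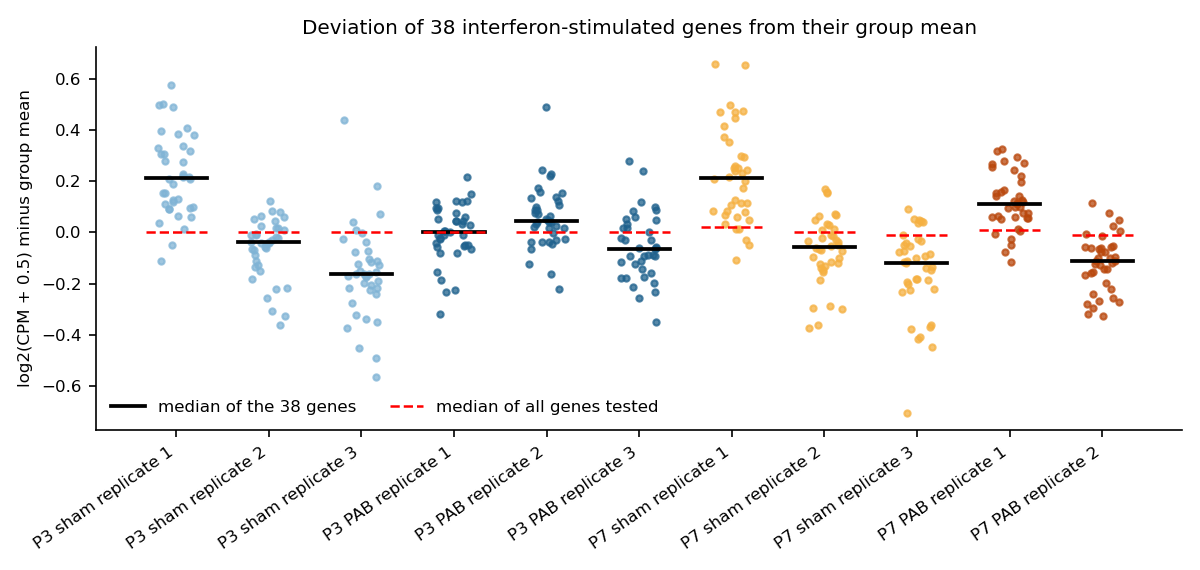
Deviation of each of the 38 genes from its group mean, on the log2(CPM + 0.5) scale, in each library, with the median of the 38 in black and that of all genes tested as a dashed line. The median lies at 0.21 in P3 sham replicate 1 and P7 sham replicate 1 and at 0.11 in P7 PAB replicate 1, and at 0 in P3 PAB replicate 1.

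At P7 the PAB effect followed exonic length, the bases covered by all annotated exons of a gene together. Over the 38 members the log2 fold change of P7 PAB against P7 sham had a Spearman correlation of -0.596 with exonic length, and over the 14960 tested genes with a length it was -0.385. This is a correlation across genes of the same 5 libraries, and genes are not independent replicates. The 19 members of up to 4111 bases had a median of 0.26 with 15 positive, and the 19 longer ones a median of -0.14 with 7 positive. Ifitm3 has 678 exonic bases, Isg15 756 and Bst2 903, and Ifih1 has 8165. After the trend of each library with length was removed, Iigp1 (0.73), Irgm1 (0.72) and Rsad2 (-1.06) were still called. Ifitm3 (0.42), Ifi27 (0.45) and Ifih1 (-0.55) passed the adjusted p but fell short of the fold change, and Bst2 (0.27, adjusted p = 0.19) and Rtp4 (0.45, adjusted p = 0.17) passed neither. The correlation in the members was then -0.269 and in all genes 0.0213. At P3 the corresponding correlation of the PAB effect with length was -0.0574 in the members and -0.187 in all genes. For the change with age under PAB it was -0.307 in the members and -0.375 in all genes. With the length trend removed, Iigp1 (1.97), Irf1 (0.89), Irgm1 (0.78), Igtp (0.59) and Rsad2 (-0.91) were still called in that comparison, Ifi27 (0.27, adjusted p = 0.088), Gbp2 (0.45), Ifih1 (-0.47) and Oasl2 (-0.48, adjusted p = 0.1) were not, and Isg15 (-0.95, adjusted p = 0.021) was called in addition.

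**Figure D5:**
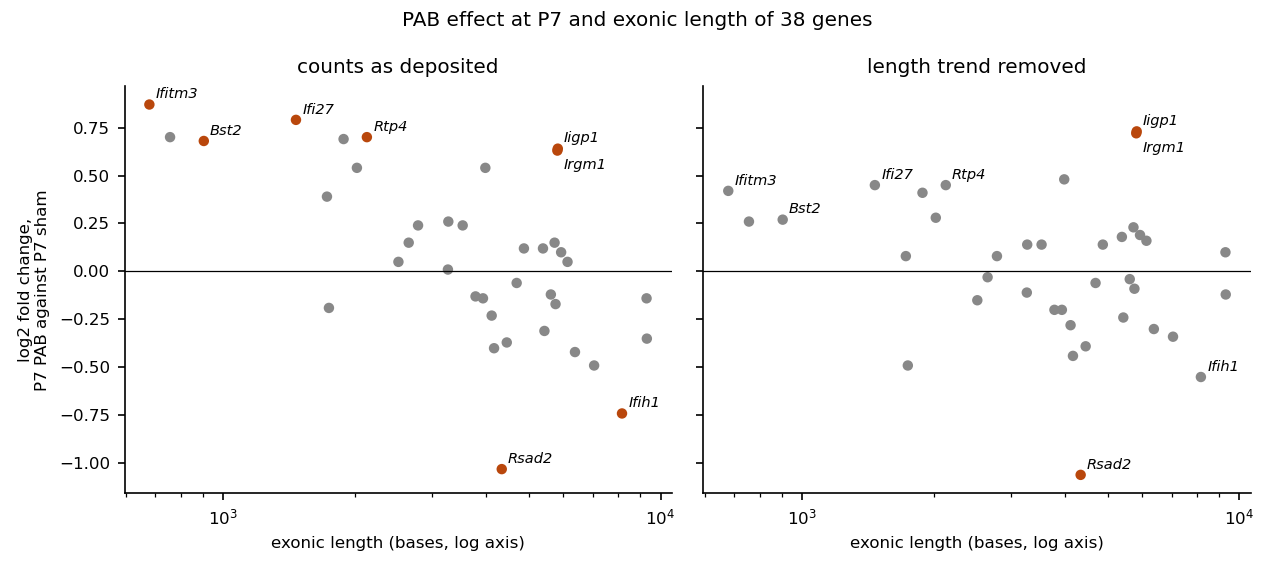
Log2 fold change of P7 PAB against P7 sham for the 38 genes against exonic length on a log axis, with the counts as deposited (left) and after removal of each library's trend with length (right), called genes in colour and all genes called on the left named in both. On the left the short genes Ifitm3 and Bst2 lie high and the long Ifih1 low, and on the right Iigp1, Irgm1 and Rsad2 remain called.

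Grouped by the motifs, the 8 members with a GAS in their window had a median log2 fold change of 0.54 at P7 between PAB and sham hearts, with 2 called higher (Ifitm3 and Bst2) and 0 lower, beside the 9.63% and 8.59% of all genes. With the length trend removed their median was 0.28 and none was called. The 11 with an ISRE and no GAS had a median of 0.01, with 1 called higher (Irgm1) and 2 lower (Rsad2 and Ifih1). The 10 with neither had a median of -0.14 and none was called. With the length trend removed, the ISRE class had a median of -0.15, with 1 called higher and 1 lower. Those with neither motif then had a median of -0.08 and none called. Ifi27, Rtp4 and Iigp1, also called higher at P7, had no window and are in none of these classes. Irf1, Igtp and Ifi35, all with a GAS and positive, passed the adjusted p but not the fold change, as did Ddx58 (-0.49, ISRE), Cmpk2 (-0.40, neither motif) and Parp14 (-0.35, no window). The grouping is a description over few genes, which also differ in length, and a match is not evidence of binding.

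Upstream of the members, the interferon genes themselves were at the limit of detection. None of 18 type I and 3 type II or III interferon genes passed the filter, and the highest count in any library was 2, for Ifnz, with 1 for Ifng and 0 for Ifnb1. Production was not detectable at this depth in ventricular RNA. The receptors were measured. Ifnar1 was at 47.4 to 61.2 CPM and Ifnar2 at 22.8 to 28.6 CPM over the libraries, with no call in any comparison. Ifngr1, of the type II receptor, was at 26.7 to 30.2 CPM at P3, 36.8 to 43.5 in P7 sham and 43.3 and 46.6 in P7 PAB libraries, and rose with age in PAB hearts by 0.66 ± 0.09 (adjusted p = 2.8e-05). Ifngr2 was at 94.0 to 103 CPM at P3, 129 to 154 in P7 sham and 115 to 117 in P7 PAB libraries, and its PAB effect differed between the ages by -0.33 ± 0.10 (adjusted p = 0.029). Ifnlr1 (4.59 to 7.54 CPM) and Il10rb (56.0 to 85.0 CPM), the type III receptor, were not called.

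Of 146 other genes of the pathway, 142 were listed and 113 tested, and 11 were higher and 10 lower at P7 under PAB (9.73% and 8.85%, beside 9.63% and 8.59% of all genes), with a median log2 fold change of -0.06. With age 13 rose and 4 fell in sham hearts (11.5% and 3.54%, beside 5.62% and 5.73%), and 17 rose and 4 fell in PAB hearts (15% and 3.54%, beside 9.5% and 8.2%). At P3 no gene was called, at an unadjusted p 6 passed. The values of these pathway genes are from the fit of the 4 groups. Their dependence on exonic length and on the class by Xist and Y transcripts was not examined. Among 56 further tested interferon-stimulated genes, 6 were higher and 7 lower at P7 under PAB (10.7% and 12.5%, beside the 9.63% and 8.59% above). Slfn5 was at 90.3 to 113 CPM in P7 sham and at 54.2 and 57.1 in P7 PAB libraries (-0.89 ± 0.11, adjusted p = 1.9e-05), and Ifi203 (-0.75), Mndal (-0.93), Sp100 (-0.71), Zc3hav1 (-0.60) and Znfx1 (-0.62) were lower as well. Slfn5, Ifi203, Mndal and Sp100 had risen with age in sham hearts, by 0.70, 0.74, 0.91 and 0.66. Ifitm2, which neighbours Ifitm3 and is a close relative, was at 55.1 to 70.5 CPM in P7 sham and at 92.4 and 99.6 in P7 PAB libraries (0.64 ± 0.09, adjusted p = 7.6e-05). Ifi27l2a, a relative of Ifi27, fell with age in sham hearts (-1.05) and was higher at P7 under PAB (0.91 ± 0.24, adjusted p = 0.0061), the order seen for Bst2. Irf2, a repressor of some interferon-stimulated genes, was lower in P7 PAB hearts (-0.61 ± 0.11, adjusted p = 5.6e-04). Slfn9 fell with age in sham hearts (-0.60), and Cxcl9, a chemokine induced by type II interferon, rose from 0.343 to 0.571 CPM in P3 sham to 1.36 to 3.40 CPM in P7 sham libraries (2.11 ± 0.38, adjusted p = 7.7e-04).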

How the data were processed

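RNA of mouse ventricles was sequenced in 11 libraries. The authors aligned reads to GRCm38 (Gencode) with STAR 2.5.2b, the version in the submitters' processing notes, and deposited whole-number counts per gene, 1 column per library, with no normalization. Counting tool, strand setting and Gencode release are not given in the sources used here. Groups came from the sample labels. The 38 members, the roles, the list of other pathway genes and the marker lists were chosen with earlier results of these data known.

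Counts were fitted in R 4.3.3 with edgeR 4.0.16 (TMM, filterByExpr, quasi-likelihood, 4 groups, all 11 libraries in the same fit because P7 PAB has 2). Comparisons were PAB against sham at each age, P7 against P3 within each operation, and the interaction of age and operation, judged by adjusted p alone. Values of every library are given for the transcription factors and for members called in any comparison or by the interaction, and the others by range and count. Of the pathway list, the receptors are named in any case, and up to 12 called genes by lowest p. Another gene that the rule names is not reported here. Exonic lengths and positions were taken from GENCODE M21 and promoter windows from RefSeq GRCm38.p6, which held 29 of the 38 members. The scripts were tested on simulated data. Library depth was 19274045 to 26820228 counts, and a count of 0 allows between 0.114 and 0.148 CPM, for counting error only. No filter beyond filterByExpr was applied. Python 3.11.15 and matplotlib 3.10.9 drew the figures.

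Tried as alternatives were total-count scaling, RLE size factors, DESeq2 1.42.0, an unfiltered fit with bias-adjusted residuals, calls without the fold change, calls by unadjusted p, a fit of the 2 groups compared, a replicate block, removal of each library's trend with exonic length (lowess, span 0.3), both of these together, the class of each library by Xist and Y-linked transcripts, and leaving out each library. Leaving out replicate 1 of P3 sham, P7 sham and P7 PAB together, and leaving out P7 sham replicate 1 for the antigen presentation genes, were added after seeing the data. As a check of pairing, the deviations of libraries with the same replicate number in different groups were correlated. The 15 pairs ran from -0.11 to 0.18, with a median of 0.063 and 3 over 0.1. The 30 pairs of unlike numbers ran from -0.179 to 0.179, with a median of -0.0384. Groups of 2 or 3 leave few free deviations, so the check cannot settle pairing, and the numbers were not taken to pair the libraries.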

Additional observations from a re-analysis of the deposited data

Results flagged for a closer look

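For 8 of the 38 genes the effect of PAB differed between P3 and P7 by edgeR's interaction term (21.1%, beside 25.9% of all genes), given here as the P7 effect minus the P3 effect on the log2 scale. Ifi27 had 0.82 ± 0.18 (SE, adjusted p = 0.0041), with a PAB effect of -0.03 at P3 and 0.79 at P7, and Rsad2 had -0.99 ± 0.22 (adjusted p = 0.0042), from -0.04 to -1.03. Both stayed past the threshold in all 20 alternatives run. The interaction holds the P7 comparison, in which the class by Xist and Y transcripts and the operation cannot be told apart. The alternative with the class as a term takes its effect from P3 sham replicate 1. Ifitm3 had 0.78 ± 0.18 (adjusted p = 0.0058), lost when the trend with length was removed (adjusted p = 0.08), and Ifih1 had -0.87 ± 0.21 (adjusted p = 0.008), lost with the class by Xist and Y transcripts in the fit (adjusted p = 0.076). Neither was lost without any single library. Iigp1 had 1.12 ± 0.32 (adjusted p = 0.018), from -0.48 to 0.64, lost without P7 PAB replicate 1 and with that class in the fit.

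Bst2 (0.71 ± 0.23, adjusted p = 0.035) and Irgm1 (0.69 ± 0.22, adjusted p = 0.035) each held in 4 of the 11 fits that leave out a library, and Rtp4 (1.02 ± 0.35, adjusted p = 0.041) in 3 of 11. Bst2 was lost without P3 sham replicate 1 or 2, P3 PAB replicate 2 or 3, P7 sham replicate 2 or 3 or P7 PAB replicate 1. Irgm1 was lost without the same libraries except that P3 PAB replicate 1 takes the place of replicate 2. Rtp4 was lost without any of 8 libraries, those named for Bst2 and P3 PAB replicate 1. With the length trend removed the interactions of Bst2 (0.36, adjusted p = 0.24) and Rtp4 (0.81, adjusted p = 0.1) were lost, and with the class in the fit that of Irgm1 (0.79, adjusted p = 0.068). Those of Irgm1 and Rtp4 were also lost without replicate 1 of 3 groups. The sign was kept for these 8 genes in every alternative.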

How the results depend on the processing

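Between P3 PAB and P3 sham no member was called in any of the alternatives, leave-one-out fits included (0 to 0). Between P7 PAB and P7 sham (6 higher, 2 lower) the higher count was 2 with the length trend removed (5.26%, beside 6.25% of genes) and 2 with that and the replicate block (beside 5.73%), and the lower count 5 without a fold change threshold, 1 with the length trend removed and 0 with the class by Xist and Y transcripts. Between P7 and P3 sham (2 higher, 4 lower) the higher count was 0 with scaling by the total count, 5 without the threshold, 0 with the class and 0 without replicate 1 of 3 groups, and the lower count 11 with scaling by the total count and 8 without the threshold. Between P7 and P3 PAB (6 higher, 3 lower) the higher count was 2 with scaling by the total count, 3 with the replicate block and 3 without replicate 1 of 3 groups, and the lower count 9 with scaling by the total count, 8 without the threshold and 5 with the replicate block. The interaction (8 members) gave 14 at an unadjusted p and 5 with the length trend removed. Scaling by the total count shifted the median of all genes by -0.31 and -0.25 in the age comparisons. For the other moves the cause was not tested.

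Leaving out each library in turn gave, between P7 PAB and P7 sham, 2 (without P7 sham replicate 3 or P7 PAB replicate 1) to 11 (without P7 sham replicate 1) higher and 2 to 3 lower. The range was 0 (without P7 sham replicate 1) to 2 higher and 1 (without P3 sham replicate 1 or P7 sham replicate 3) to 6 (without P7 sham replicate 1) lower between P7 and P3 sham, 2 (without P7 PAB replicate 1) to 8 higher and 1 (without P3 PAB replicate 2 or P7 PAB replicate 2) to 3 lower between P7 and P3 PAB, and 5 (without P3 PAB replicate 3, P7 sham replicate 2 or P7 sham replicate 3) to 13 (without P7 sham replicate 1) for the interaction. Where P7 PAB is left with 1 library, that library is assumed to vary like the other groups. Of the values of single called genes under the alternatives, 530 kept their call, 113 lost it and 0 changed sign.

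The replicate block at P7 gave 4 members higher and 2 lower under PAB (10.5% and 5.26%, beside 8.96% and 7.67% of genes), and 12 members for the interaction (18.4% positive and 13.2% negative, beside 12.6% and 11.9%). Whether replicate numbers pair the libraries is not settled (4 of 11 correlated best with a library of their own number). What a call lost under the block means was not tested. Depth limits Zbp1, with 5 to 19 counts, and the interferon genes, with at most 2.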

Other observations

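Antigen presentation genes, which interferons also induce, were not part of the 38. Of 16 tested, 4 were higher in P7 PAB than P7 sham hearts and 0 lower (25% beside 9.63% of all genes), 4 rose with age in sham hearts (25% beside 5.62%) and 7 in PAB hearts (43.8% beside 9.5%), with 0 falls in both. P7 sham replicate 1 stood apart for several of them, with B2m, the light chain of MHC class I, at 317.8 CPM beside 99.8 and 95.2 in the other P7 sham libraries, H2-K1 at 210.5 beside 39.7 and 43.7 and H2-D1 at 211.3 beside 72.6 and 66.9. Without that library, an alternative added after seeing the data, 5 were higher at P7 under PAB (beside 11.3% of all genes), 8 rose with age in PAB hearts (beside 9.58%) and 1 of 16, H2-Aa, rose with age in sham hearts (beside 5.25%). Psmb9, a subunit of the immunoproteasome, was at 5.42, 1.99 and 2.39 CPM in P7 sham and at 7.29 and 5.82 CPM in P7 PAB libraries (log2 fold change 1.02 ± 0.32, adjusted p = 0.017 by edgeR), and it rose with age in PAB hearts by 1.96 ± 0.34 (adjusted p = 2.9e-04). Psme2, of the proteasome activator that interferon induces, was at 29.3 to 35.4 CPM in P7 sham and at 53.8 and 48.4 CPM in P7 PAB libraries (0.68 ± 0.09, adjusted p = 3.3e-05). H2-Aa, a chain of MHC class II, rose with age in sham hearts by 1.24 ± 0.29 (adjusted p = 0.0043) from levels under 1 CPM at P3. These genes were named after their values were seen, and how they depend on exonic length or on the class by Xist and Y transcripts was not examined.

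At low levels, Cxcl10 was at 0.788, 0.243 and 0.293 CPM in P7 sham and at 1.31 and 1.13 CPM in P7 PAB libraries (1.48, adjusted p = 0.029), and Tgtp1, a GTPase, at 2.56, 0.875 and 0.671 and at 5.94 and 2.56 CPM (1.66, adjusted p = 0.0066). Psmb9, Cxcl10 and Tgtp1 had the highest value of their group in replicate 1 of P7 sham and of P7 PAB, as 24 of the 38 members did in those groups and in P3 sham.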
